A study of Mus musculus with 2 samples.

Results

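The cells described here were 799 stromal cells of adult mouse bone marrow with many Ibsp and Spp1 transcripts for few Adipoq and Lpl transcripts. They were chosen from 4250 cells of the LepR_tdT library, of which they made up 18.8%, and from 8786 cells in the whole series. A cell entered the ranking with at least 1000 UMIs (unique molecular identifiers, each a counted RNA molecule) and at least 1% of them from Cxcl12. It also had to hold under 0.5% of its UMIs from 5 bone genes (Bglap, Bglap2, Col1a1, Car3 and Mmp13) and under 5 UMIs of Kit, Cxcl5, Hsd11b1 and Mrap together. Depth left 3672 cells, Cxcl12 3426, the bone genes 3373 and the last step 3195 ranked cells. These were ordered by the score (Ibsp+Spp1+1)/(Adipoq+Lpl+1) in raw UMIs. The highest 25% are called members below, the next 1597 cells the middle 50% and the last 799 the lowest 25%. No cell of the endothelial library passed the Cxcl12 step, of 3800 deep enough to be tested.

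The study profiled niche cells of the marrow in 2 droplet libraries, LepR_tdT and EC, from LepR-Cre;LSL-tdTomato mice of strain C57Bl/6JCrl aged 3 to 4 months. In these mice Cre made under the leptin receptor gene switches on the red protein tdTomato, so that a red cell either expresses Lepr or descends from one that did, and red is no proof of present Lepr expression. The labels give no count of mice, and tibial marrow was freed with collagenase, dispase and DNase, which can induce stress genes. Their protocol assigns tamoxifen, injected antibody and stains to overlapping sample numbers, so the treatment and gate of each library are uncertain. Both groups carry the same genotype, and every comparison below lies within 1 library, so that there is no replicate and no test between animals.

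Marrow stromal cells that express the leptin receptor sit along sinusoids and make Cxcl12 and stem cell factor, which hold and feed blood stem cells. They are also the main source of new osteoblasts and marrow fat cells in the adult. Single cells of this kind often carry transcripts of both fates, and the balance between bone genes and fat genes has been used to call cells osteo-primed or adipo-primed. Runx2 and Sp7 are the transcription factors that commit cells to bone, and Pparg and Cebpa those that commit them to fat.

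The 4 ranking genes set the members by construction, so their values are a description. Ibsp encodes bone sialoprotein and Spp1 encodes osteopontin, both acidic proteins of mineralised matrix. Adipoq encodes the hormone adiponectin and Lpl encodes lipoprotein lipase, which frees fatty acids from blood lipids. Levels are given as CPM, the class's UMIs of a gene per 1000000 UMIs of that class, with the exact 95% Poisson interval in parentheses where shown. Ibsp stood at 8978 CPM (8882 to 9074) in members, 7616 in the middle 50% and 3847 in the lowest 25%. Spp1 stood at 8968 CPM (8872 to 9064), 5969 and 3712. Adipoq stood at 1345 CPM (1308 to 1382) in members, 2699 in the middle 50% and 3593 in the lowest 25%. Lpl stood at 961 CPM (930 to 993), 2035 and 3688. Against the middle 50%, members thus differed less in Ibsp (log2 ratio 0.24) and Spp1 (0.59) than in Adipoq (-1.01) and Lpl (-1.08). The members were set apart more by having few fat transcripts than by having many bone transcripts.

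The limit of the class cut through a continuous range. The median cell held 78 UMIs of Ibsp+Spp1 and 10 of Adipoq+Lpl among members, 58 and 20 in the middle 50%, and 33 and 31 in the lowest 25%. The last member had 108 and 23 UMIs, a score of 4.5417, and the first cell outside had 58 and 12 UMIs, a score of 4.5385. The 20 members nearest the limit had a median score of 4.5714 and the 20 cells just outside one of 4.5000. Of the members, 571 (71.5%) lay above the median Ibsp+Spp1 share and below the median Adipoq+Lpl share of ranked cells. A further 168 (21%) had only the low fat share and 60 (7.51%) only the high bone share.

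High Ibsp and high Spp1 shares fell together about as often as unrelated shares would. Of the 799 cells with the highest Ibsp share and the 799 with the highest Spp1 share, 176 (22% of each) were in both sets. Unrelated shares would put 25% of each in both sets. Over the 799 members the shares had a Spearman rho of -0.31, and over all 3195 ranked cells one of -0.10, while Ibsp and Adipoq had 0.44 and 0.17. These are descriptions over cells of 1 library, whose shares have a common total and, among members, are tied by the score. The highest 25% by Ibsp share held 322 members (40.3%), the highest 25% by Spp1 share 356 (44.6%), and the lowest 25% by Adipoq+Lpl share 541 (67.7%).

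The upstream sequences of an Ibsp+Spp1 gene, a fat gene and the genes Alpl and Kcnk2 are shown because Alpl and Kcnk2, described below, differed most by the fat share of the score. Each is the 250 bases before the first RefSeq start of the gene on GRCm38.p6, read in the gene's direction, and none overlaps an annotated exon. Capitals mark 3 motifs, each searched on both strands. The core bound by RUNX factors was searched as ACCACA. The box of the general factor NF-Y was searched as CCAAT. The TATA box was searched as TATAAA. The windows are Spp1 chr5:104434861-104435110 on the plus strand, Adipoq chr16:23146286-23146535 on the plus strand, Alpl chr4:137796385-137796634 on the minus strand and Kcnk2 chr1:189402274-189402523 on the minus strand.
Spp1: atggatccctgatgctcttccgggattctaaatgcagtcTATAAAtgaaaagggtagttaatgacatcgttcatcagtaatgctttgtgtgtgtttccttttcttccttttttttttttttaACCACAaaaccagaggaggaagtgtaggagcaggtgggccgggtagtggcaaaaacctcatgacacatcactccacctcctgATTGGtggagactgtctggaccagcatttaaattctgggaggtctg
Adipoq: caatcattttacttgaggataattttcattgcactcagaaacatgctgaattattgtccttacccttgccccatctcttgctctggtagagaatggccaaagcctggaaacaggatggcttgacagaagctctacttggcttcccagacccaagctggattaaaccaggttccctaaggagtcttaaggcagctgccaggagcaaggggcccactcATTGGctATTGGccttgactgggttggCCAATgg
Alpl: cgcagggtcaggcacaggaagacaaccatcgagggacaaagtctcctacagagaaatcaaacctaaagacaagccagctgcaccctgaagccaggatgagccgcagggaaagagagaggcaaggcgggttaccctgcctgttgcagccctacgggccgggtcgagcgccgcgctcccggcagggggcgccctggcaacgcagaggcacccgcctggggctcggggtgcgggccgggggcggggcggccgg
Kcnk2: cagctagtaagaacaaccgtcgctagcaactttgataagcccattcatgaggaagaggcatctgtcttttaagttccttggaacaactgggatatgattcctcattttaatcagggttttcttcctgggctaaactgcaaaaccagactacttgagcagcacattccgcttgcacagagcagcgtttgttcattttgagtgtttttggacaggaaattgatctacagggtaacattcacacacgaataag
The RUNX core stood in the Spp1 window alone, beginning 128 bases before the start, and the NF-Y box stood in the Spp1 and Adipoq windows. The TATAAA letters also stood in the Spp1 window alone, beginning 211 bases before the start. The same letters occur in 14.0% (RUNX core), 33.8% (NF-Y box) and 12.4% (TATA box) of all 32851 windows of this length, so that a match is no more than a description. Spp1 and Alpl have 2 RefSeq starts each, Kcnk2 has 4 and Adipoq has 1. Transcripts counted per gene do not tell which start was used.

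Outside the rule, few genes separated members from the middle 50%. A gene was measured with at least 50 UMIs in both classes together, and it was called higher or lower at a difference of at least 1.5-fold whose 95% interval, which covers counting error only, excluded no difference. Of 9971 measured genes, 127 (1.27%) were called higher and 119 (1.19%) lower in members. Among the 1652 genes that reached 100 CPM, 12 (0.726%) were higher and 3 (0.182%) lower, and some of these are genes of the rule. The higher ones outside the rule were Saa3, Kcnk2, Alpl, Wif1, Ncam1, Limch1, Ccl2, S100a6 and Rmnd1. The lower one was Hbb-bs, a haemoglobin gene.

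**Figure D1:**
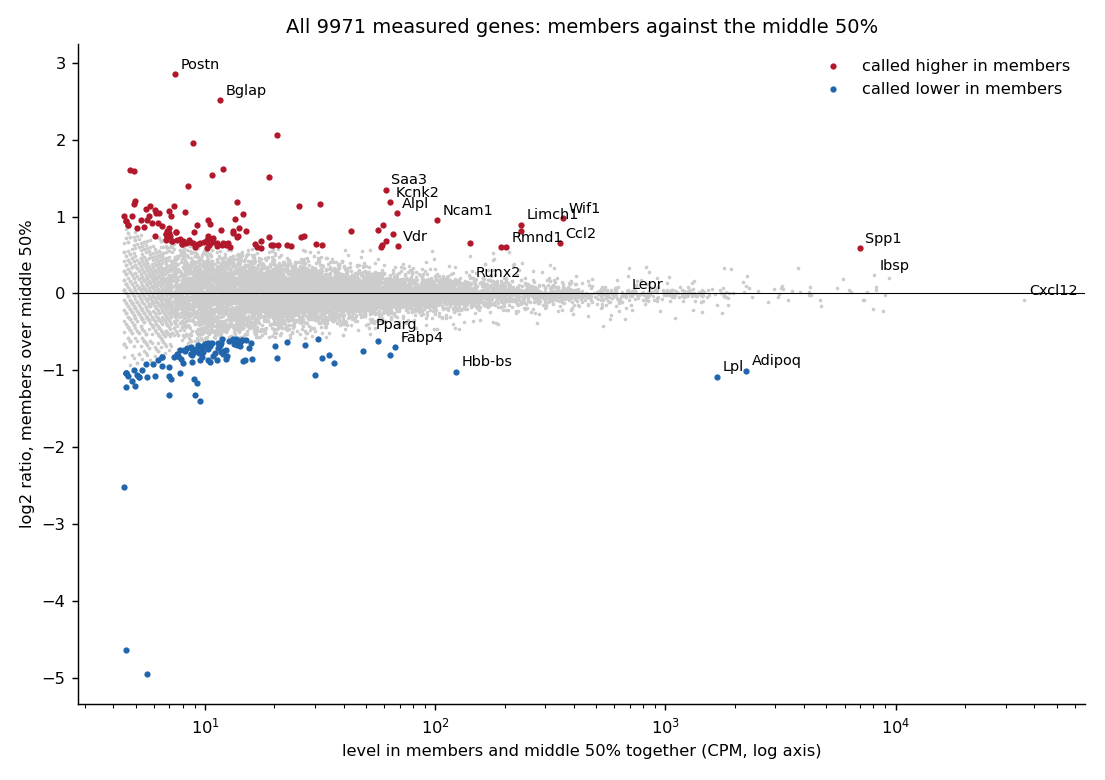
Each point is 1 of the 9971 measured genes, with its level in members and middle 50% together (CPM, log axis) against the log2 ratio of members over the middle 50%, and colours mark calls. Most called genes lie at low levels on the left, while Wif1, Limch1, Ncam1, Alpl and Kcnk2 are called higher at levels further to the right.

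Alpl, Wif1, Limch1, Kcnk2 and Ncam1 formed the clearest set. Alpl encodes the alkaline phosphatase of matrix-forming osteoblasts (ENSMUSG00000028766, chromosome 4, 137741733 to 137796384). It stood at 103 CPM (93.4 to 114) in members, 50.3 in the middle 50%, 55.9 in the lowest 25% and 480 in osteolineage cells, a log2 ratio over the middle of 1.04 with 0.83 as the lower end of its interval. Members stood above both other ranked classes and far under osteolineage cells. Wif1 encodes a secreted inhibitor of Wnt ligands (ENSMUSG00000020218, chromosome 10, 121033960 to 121100650). It stood at 535 CPM (512 to 559), 271, 231 and 1073 in the same 4 classes, a log2 ratio of 0.98 (0.89 to 1.07).

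Kcnk2 encodes a two-pore-domain potassium channel that responds to stretch (ENSMUSG00000037624, chromosome 1, 189207930 to 189402273). It stood at 102 CPM (91.6 to 112) in members, 44.6 in the middle 50%, 46.6 in the lowest 25% and 352 in osteolineage cells, a log2 ratio over the middle of 1.19 (0.97 to 1.40). Limch1, whose protein binds non-muscle myosin, stood at 341 CPM in members, 184 in the middle 50% and 867 in osteolineage cells, a log2 ratio of 0.90 (0.78 to 1.01). Ncam1, a cell adhesion molecule, stood at 150 CPM, 77.6, 77.3 and 609, a log2 ratio of 0.95 (0.78 to 1.12). In each of the 5 genes the level in members lay between that of the other ranked cells and that of osteolineage cells.

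**Figure D2:**
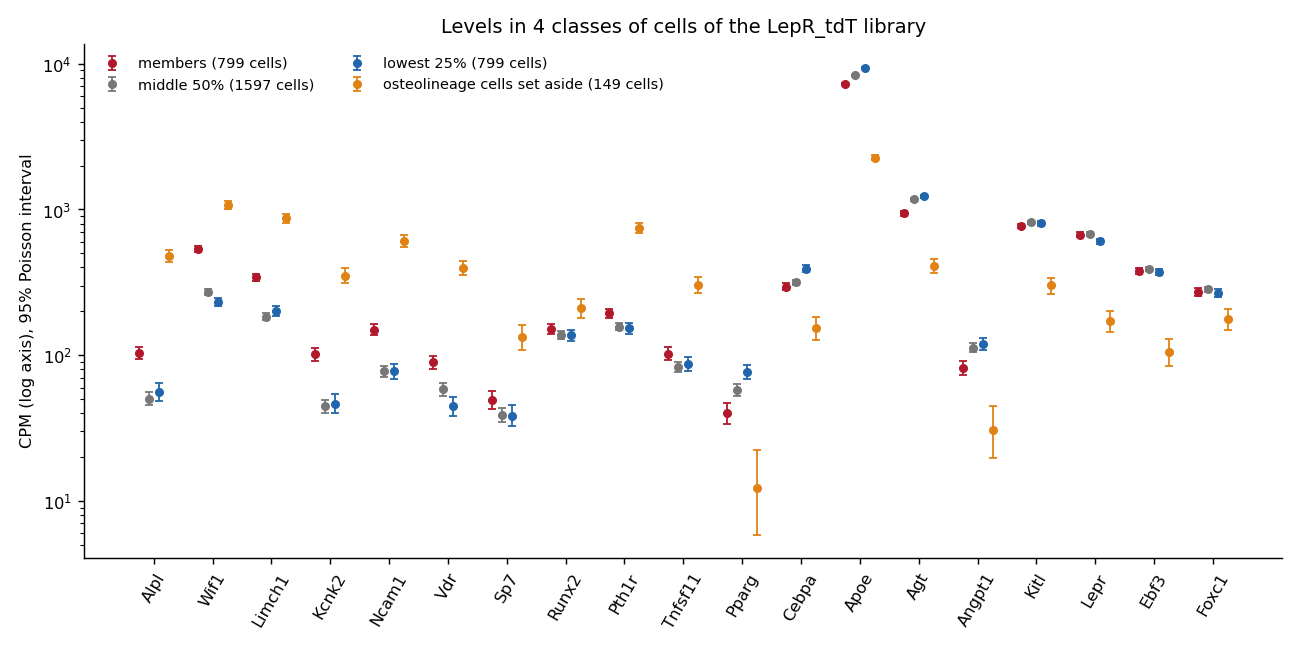
CPM on a log axis with 95% Poisson intervals for 19 genes in members, the middle 50%, the lowest 25% and the 149 osteolineage cells set aside by the bone gene limit. Alpl, Wif1, Limch1, Kcnk2 and Ncam1 lie in members between the other ranked cells and the osteolineage cells, whereas Lepr, Kitl, Ebf3 and Foxc1 lie close together in the 3 ranked classes.

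Within the ranked cells, the difference lay mainly in the cells with the very highest scores. The ranking was cut into 10 bins, from bin 1 with the highest scores to bin 10 with the lowest. Alpl stood at 160.7 CPM in the 320 cells of bin 1, at 57.7 in the 320 of bin 2 and between 49.1 and 58.7 in bins 3 to 10. Kcnk2 stood at 169 CPM, then 56.3, and between 31.7 and 54.1 in the rest. Limch1 stood at 483 CPM, then 219, and between 164 and 231. Bin 1 was well above bin 2 for each of these genes, and bin 2 was near the rest. Ncam1 stood at 223 CPM, then 98.9, and between 69.0 and 92.5. Wif1 was more graded, at 748 CPM, then 410, 338 and 278 in bins 3 and 4.

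The ranking genes followed another course. Spp1 went from 10526 CPM in bin 1 to 2725 in bin 10, and Adipoq from 805 to 3684, as the score requires. Ibsp was highest in bin 2, at 9328 CPM, and stood at 8350 in bin 1. Lepr also stood lower in bin 1 (584 CPM) than in bin 2 (741), and Cxcl12 likewise (32736 and 35726). Of 6535 genes measured in bins 1 and 2, 123 (1.88%) were called higher in bin 1 and 105 (1.61%) lower.

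**Figure D3:**
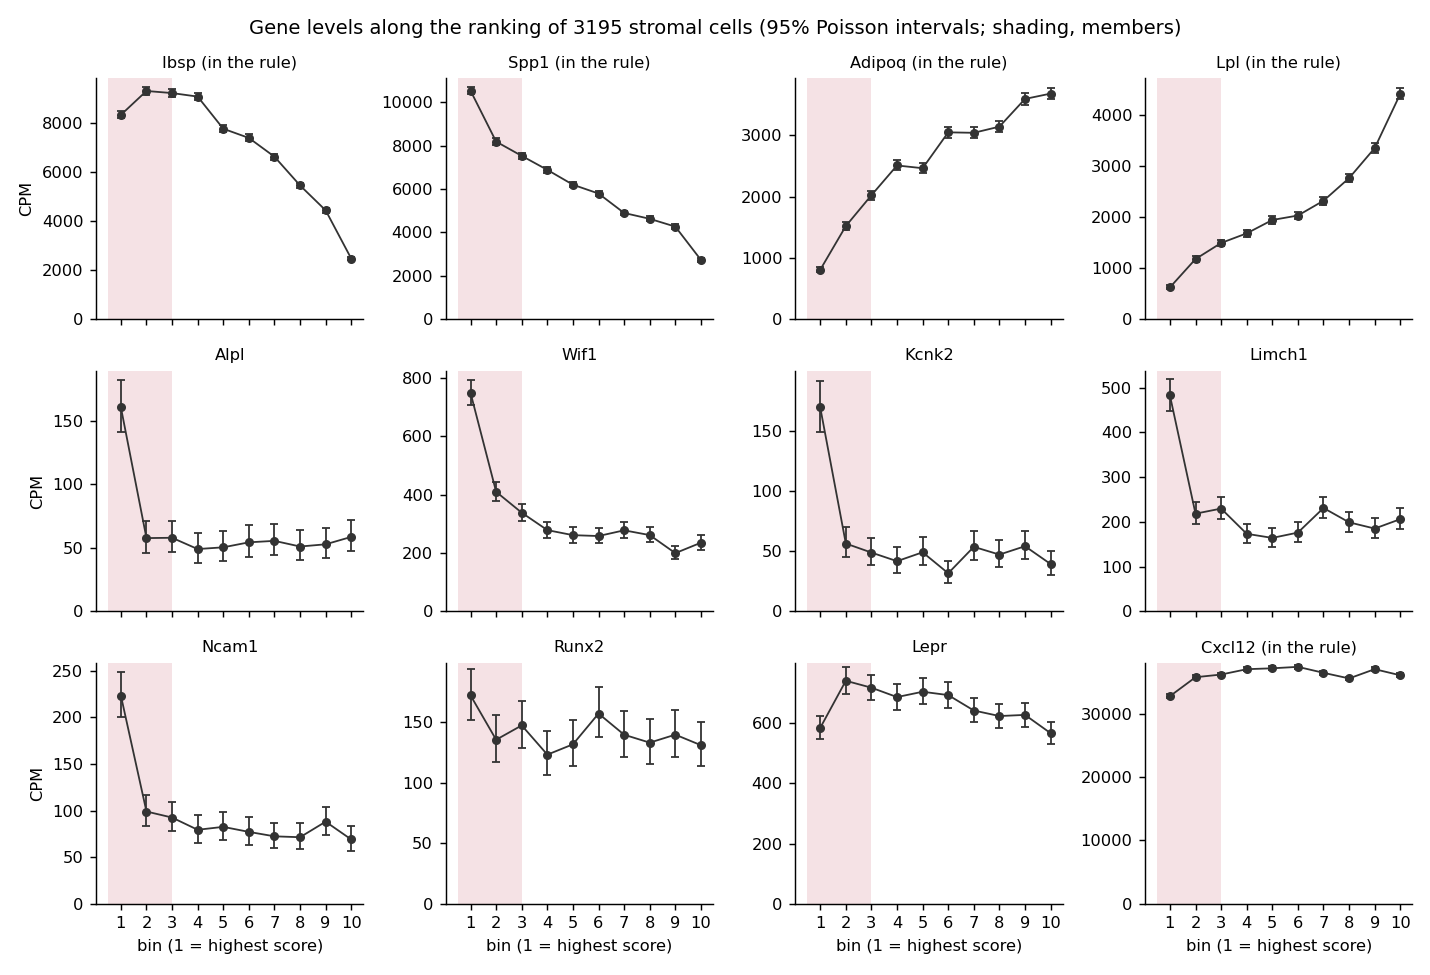
CPM with 95% Poisson intervals along the 3195 ranked cells, cut into bins from the highest score (1) to the lowest (10), with the members shaded. Alpl, Kcnk2, Limch1 and Ncam1 are highest in bin 1, Wif1 declines over bins 1 to 4, and Ibsp peaks in bin 2.

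A small number of cells just under the bone gene limit carried much of this difference. In 50 of the 320 cells of bin 1 (15.6%) the 5 bone genes made up 0.2% to 0.5% of the UMIs, against 14 of 320 (4.38%) in bin 2 and 2.32% of the middle 50%. Those 50 cells held Alpl at 503 CPM, Kcnk2 at 534, Limch1 at 1235, Ncam1 at 581 and Wif1 at 1870, levels above those of the osteolineage cells for each of the 5 but Ncam1. Their Ibsp stood at 4420 CPM and their Lepr at 352, both under the other 270 cells of bin 1, which had 9156 and 632. In those 270 cells Alpl stood at 90.5 CPM, Kcnk2 at 94.5, Limch1 at 329, Ncam1 at 150 and Wif1 at 518, still above bin 2. The limit of 0.2% was chosen after the values of bin 1 had been seen.

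Cells in this window of bone gene share occurred in every ranked class, in different numbers and with different levels of Alpl and Wif1. Cells with 0.2% to 0.5% bone gene UMIs were 68 of 799 members (8.51%), 37 of the middle 50% and 22 of the lowest 25% (2.75%). Alpl stood in them at 459 CPM (members), 319 (middle) and 223 (lowest), and Wif1 at 1646, 738 and 427. With all such cells left out of both classes, 731 members and 1560 middle cells remained. Alpl then stood at 68.4 CPM in members and 43.3 in the middle, and the log2 ratio was 0.66 (0.41 to 0.91). Kcnk2 had 0.81, Wif1 0.72, Limch1 0.69 and Ncam1 0.63. All 5 were still called higher, while Vdr and S100a6 were not, with 98 of 9878 genes (0.992%) called higher and 114 (1.15%) lower.

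**Figure D4:**
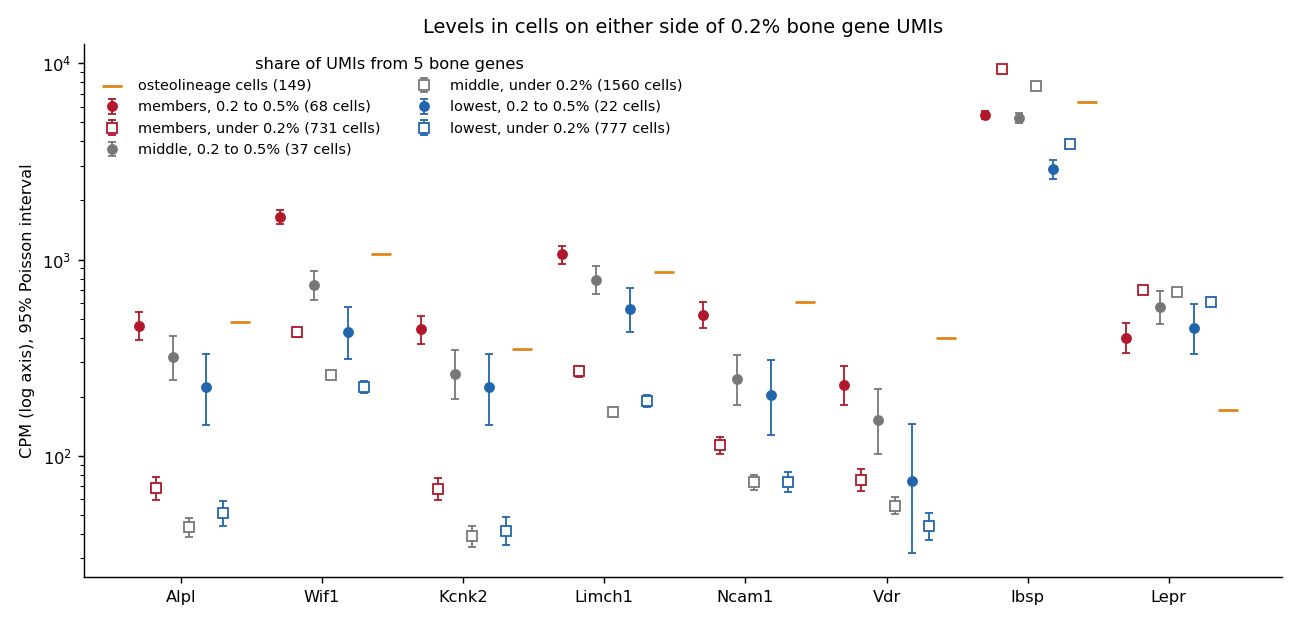
CPM on a log axis with 95% Poisson intervals for 8 genes in each ranked class, with cells split at 0.2% of UMIs from the 5 bone genes, beside the osteolineage level. In members the 68 cells over the split reach about the osteolineage level for Alpl and Kcnk2, and the 731 cells under it stay above the middle and lowest cells under it.

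The set differed more by low Adipoq+Lpl than by high Ibsp+Spp1, least so for Ncam1. When cells were ranked by the Adipoq+Lpl share alone, from the lowest, the highest-ranked 25% had log2 ratios over the middle of 0.96 for Alpl, 0.84 for Wif1, 1.14 for Kcnk2, 0.79 for Limch1 and 0.65 for Ncam1. When they were ranked by the Ibsp+Spp1 share alone, the values were 0.08, 0.04, 0.04, -0.34 and 0.41 (0.23 to 0.58 for Ncam1), and none reached 1.5-fold. With Ibsp alone Kcnk2 was called lower (-0.59, -0.90 to -0.29), and with Spp1 alone it was called higher (0.62, 0.41 to 0.83). The Ibsp share ranked cells differently from the Spp1 share for this gene.

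Cells divided at the medians of both shares gave a second description, from the same cells and ranking genes, and no independent support. Alpl stood at 81.1 CPM with high Ibsp+Spp1 and low Adipoq+Lpl, and at 79.7 with low Ibsp+Spp1 and low Adipoq+Lpl. With high Adipoq+Lpl it stood at 45.6 in cells of high and 55.4 in cells of low Ibsp+Spp1. Limch1 stood at 274 and 318 CPM in the pair with low fat transcripts and at 133 and 195 in the pair with high ones. Kcnk2 stood at 74.4 and 91.4 against 32.1 and 42.8 CPM. On either side of the fat share, Kcnk2 and Limch1 were higher where Ibsp+Spp1 was low, and the intervals of Alpl overlapped.

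**Figure D5:**
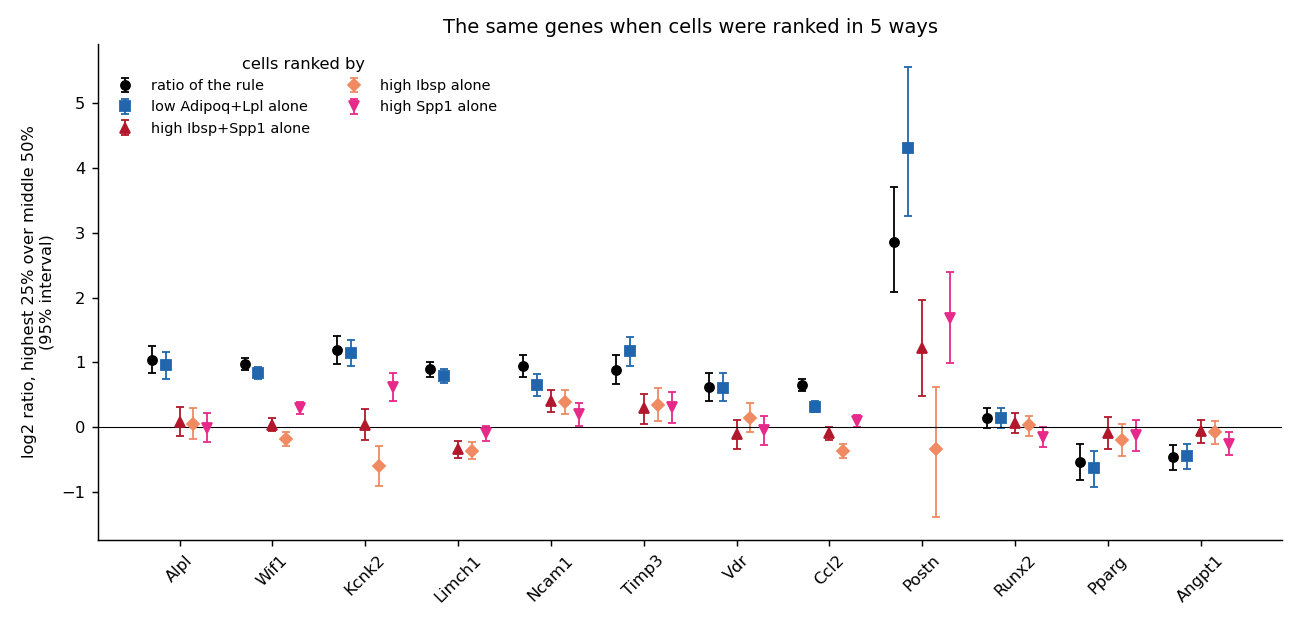
Log2 ratios with 95% intervals of 12 genes in the highest 25% over the middle 50% when the same cells were ranked by the score, by low Adipoq+Lpl, by high Ibsp+Spp1, by Ibsp or by Spp1. Alpl, Wif1, Kcnk2, Limch1 and Vdr lie high under the score and under low Adipoq+Lpl, and near or below 0 under high Ibsp+Spp1, whereas Ncam1 lies above 0 under every ranking and Kcnk2 also under Spp1.

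Genes outside the rule gave the label osteo-primed no clear answer at the level of transcription factors. None of the 14 measured osteogenic transcription factors was called in either direction against the middle 50%, where 1.27% of all genes were called higher and 1.19% lower, so that a count of 0 in a list this short is near the background. The list had a median log2 ratio of 0.15 beside -0.003 over all genes, and 10 of the 14 lay above 0. Runx2 stood at 152 CPM (139 to 165) in members, 138 in the middle, 137 in the lowest 25% and 211 in osteolineage cells, a log2 ratio over the middle of 0.14 (-0.01 to 0.29). Sp7, which acts after Runx2, stood at 49.5 CPM, 39.0, 38.5 and 133, a log2 ratio of 0.34 (0.07 to 0.61). With cells of 0.2% or more bone gene UMIs left out of both classes, Sp7 had 0.20 (-0.10 to 0.49). Dlx5, a homeobox factor of bone, had 0.16 (-0.00 to 0.31). Against the lowest 25% 1 of 13 was called higher (1.78% of all 9198 genes were), the muscle and bone factor Mef2c, at 47.3 against 25.5 CPM, and none was called lower (2.00%).

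Among bone matrix and mineralisation genes outside the rule, 4 of 17 were called higher (Postn, Alpl, Dmp1 and Slc20a2) and 1 lower (Slc20a1), beside 1.27% and 1.19% of all genes. The median was 0.21 and 15 of 17 lay above 0. Against the lowest 25%, 3 of 16 were called higher (Postn, Alpl and Omd) and none lower, beside 1.78% and 2.00% of all genes. The median was then 0.12, with 11 above 0 and 5 below. The list did not rise steadily along the ranking, as it summed to 7148 CPM in members, 6665 in the middle and 7407 in the lowest 25%. Postn encodes periostin, made by osteoblast precursors and periosteum. It had 65 UMIs in members, 18 in the middle and 5 in the lowest 25%, a log2 ratio over the middle of 2.85 (2.08 to 3.70), and 42 of the 65 lay in the 68 members with 0.2% to 0.5% bone gene UMIs. Dmp1, a matrix protein of osteocytes, had 30 and 26 UMIs, a log2 ratio of 1.21 (0.40 to 2.02). The phosphate transporters Slc20a2 (0.75) and Slc20a1 (-0.73) went opposite ways on 53 and 25 UMIs in members. Abundant matrix genes differed little, with Col1a2 at 0.09, Sparc at 0.06 and Tnc at 0.21, and none was called.

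The receptors and signals that act on bone cells differed less than Alpl. Vdr, the vitamin D receptor, stood at 89.3 CPM in members, 58.2 in the middle, 44.8 in the lowest 25% and 399 in osteolineage cells, and was called higher over the middle at 0.62 (0.41 to 0.83). With the cells of 0.2% or more bone gene UMIs left out it had 0.44 (0.21 to 0.67) and was no longer called. It was 1 of 17 measured hormone receptors, and no other was called. Over all genes 1.27% were called higher and 1.19% lower, the shares to set beside this list and the RANKL axis. Pth1r, the parathyroid hormone receptor, had a log2 ratio of 0.30 (0.17 to 0.44) and was not called. Tnfsf11, which encodes the osteoclast factor RANKL, stood at 103 CPM against 83.6, a ratio of 0.30 (0.11 to 0.48). With the cells of 0.2% or more bone gene UMIs left out, Pth1r had 0.12 (-0.03 to 0.27) and Tnfsf11 0.08 (-0.13 to 0.28). Both intervals then included no difference. Of 8 measured genes of the RANKL axis, the chemokine Ccl2 alone was called, at 460 against 293 CPM (0.65, 0.56 to 0.74). Ranked by Ibsp+Spp1 alone, Vdr had -0.11 and Ccl2 -0.09.

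Genes of the bone rule itself also stood higher in members, although every ranked cell lay under the limit. Mmp13, a collagenase of osteoblasts, stood at 332 CPM against 188 in the middle, Col1a1 at 188 against 119, Bglap (osteocalcin) at 25.9 against 4.54, Bglap2 at 41.7 against 10 and Car3 at 21.7 against 7.08. In osteolineage cells these stood at 8676, 4937, 834, 676 and 834 CPM. These genes were used to choose the cells, so the values are a description. Of the other excluded genes, Kit stood at 15.8 against 15.0 CPM, Cxcl5 at 6.68 against 5.74, Hsd11b1 at 28.9 against 35.6 and Mrap at 23 against 34.7.

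Among 21 measured adipogenic and lipid genes outside the rule, 1 was called lower (Fabp4) and none higher, with a median of -0.11 and 17 of 21 below 0. Over all genes 1.19% were called lower and 1.27% higher, so that these counts are near the background. Pparg, the master factor of fat cells, stood at 40.1 CPM (33.9 to 47.1) in members, 57.9 in the middle, 76.8 in the lowest 25% and 12.2 in osteolineage cells. Its log2 ratio was -0.53 (-0.81 to -0.26) over the middle, short of the limit of 1.5-fold, and -0.94 (-1.23 to -0.65) over the lowest 25%, where it was called. Pparg levels thus descended from the lowest class to members and were lower again in osteolineage cells. Cebpa, its partner, stood at 295, 318 and 393 CPM in the 3 ranked classes, ratios of -0.11 and -0.41. Apoe, a lipid carrier, had -0.20 over the middle and -0.37 over the lowest 25%, and angiotensinogen (Agt) -0.32 and -0.39. Scd1, a fatty acid desaturase, was called over the lowest 25% alone (-1.09, -1.55 to -0.64), as 1 of 3 with Fabp4 and Pparg. Against that class 2.00% of all genes were called lower.

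Fabp4, a fatty acid binding protein, stood at 47.3 CPM in members, 76.8 in the middle and 109 in the lowest 25% (-0.70, -0.95 to -0.45 over the middle). Beside that, the RNA of empty droplets of this library held it at 4457 CPM, far above any of these classes. With cells ranked by Adipoq+Lpl alone its ratio was 1.47 in the other direction. Of its 177 UMIs in members, 98 lay in 1 cell, and with the cell of most UMIs left out of each class the ratio was -1.68 (-2.04 to -1.33). The part of free RNA in its level was not tested.

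Factors that serve blood stem cells differed little. Of 26 measured haematopoietic niche factors, the cytokine Il6 alone was called higher, on 40 and 38 UMIs, none was called lower, and the median was -0.07. Over all genes 1.27% were called higher and 1.19% lower, so that these counts are near the background. Il6 had 0.17 with cells of a high immediate early share left out. Kitl, which encodes stem cell factor, stood at 771 CPM in members, 818 in the middle and 804 in the lowest 25%, and Il7, the B cell cytokine, at 85.0, 90.4 and 101. Angpt1, a ligand of the Tie2 receptor, stood at 81.5 CPM (72.6 to 91.2), 113 and 119, ratios of -0.46 (-0.66 to -0.27) and -0.55 (-0.76 to -0.34) that did not reach 1.5-fold. Bmp4 had -0.38 over the middle. Against the lowest 25%, 3 of 24 measured niche factors were called higher in members (Ccl19, Vegfa and Tslp) and 1 lower, Bmp4 (-0.60). In that comparison 1.78% of all genes were called higher and 2.00% lower. Vcam1, an adhesion molecule, had -0.15, and Igf1, a growth factor, 0.37.

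Stromal identity genes stayed near the other ranked cells. Of 23 measured stromal transcription factors none was called against the middle 50%, with a median of -0.05. Over all genes 1.27% were called higher and 1.19% lower, so that a count of 0 here is near the background. Ebf1 stood at 825 against 848 CPM, Ebf3 at 378 against 391 and Foxc1 at 271 against 283, all of them factors that maintain these niche cells. Lepr stood at 670 CPM (644 to 697) in members, 678 in the middle, 605 in the lowest 25% and 172 in osteolineage cells. The TDTOMATO transcript had 66, 158 and 59 UMIs in the 3 ranked classes, 17.6, 21.1 and 15.4 CPM. Lepr in members lay within counting error of the middle and above the lowest 25% (0.15, 0.07 to 0.23), a difference far short of 1.5-fold.

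Wnt genes were led by the same set. Of 26 measured members of that list, 2 were called higher, Wif1 and Limch1, and none lower, with a median of 0.09. Limch1 is on the list, although its protein is known as a myosin regulator. Over all genes 1.27% were called higher and 1.19% lower, for this list and the next. Of 16 metalloproteinases and inhibitors, 13 lay above 0 and 3 were called, among them Timp3 at 85.8 CPM in members, 46.5 in the middle and 25.5 in the lowest 25% (0.89, 0.66 to 1.11), and Timp4 in the other direction at 41.4, 63.7 and 100.4 CPM. The third was Mmp2. Both inhibitors restrain matrix enzymes, and their levels ran in opposite order over the 3 classes.

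Some genes of high ratio rested on few cells. Saa3, an acute phase protein, had the highest ratio of those that reached 100 CPM, 1.35 (1.13 to 1.57), but its 383 UMIs came from 31 of 799 members, with 120 in 1 cell. Its ratio was 0.30 when the counts were split at random and 1 part gave the ranking and the other the levels. Comp, a cartilage matrix protein, stood at 50 CPM in members, 22.3 in the middle and 48.7 in the lowest 25%, with 81.8% of the members' UMIs in 40 cells. It was 1 of 2 called higher among 4 cartilage genes, with Sox9, on 75 UMIs, beside 1.27% of all genes called higher. Alpl was seen in 190 members and Wif1 in 546, but their UMIs were uneven too. In bin 1, the 50 of 320 cells with 0.2% or more bone gene UMIs held 130 of 244 Alpl UMIs. They held 483 of 1136 Wif1 UMIs.

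Stress and depth were recorded beside these values. Of 20 immediate early genes, which digestion can induce, 19 lay above 0 in members over the middle, with a median of 0.07. Of these, 2 were called higher (Atf3 and Klf4). Over all genes 1.27% were called higher and 1.19% lower, with a median of -0.003, for this list and the secretory pathway genes below. The median share of immediate early UMIs was 0.95% in members, 0.869% in the middle, 0.84% in the lowest 25% and 1.03% in bin 1. With the 25% of cells of highest share left out, Klf4 had 0.41, Alpl 0.98 and Wif1 0.90. Of 23 secretory pathway genes 21 lay below 0 and none was called (median -0.05), a count near the background. Median depth was 4564 UMIs in members, 4556 in the middle and 4760 in the lowest 25%, and the median mitochondrial share 2.27%, 2.15% and 2.19%.

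Markers of other cells were unequal for fibroblasts and red blood cells. The fibroblast and periosteal list summed to 1300 CPM in members, 1060 in the middle, 1183 in the lowest 25% and 4025 in osteolineage cells. Of its 8 measured genes 7 lay above 0 in members over the middle and 2 were called, S100a6 (250 against 164 CPM) and Ly6a (14.4 against 9.08). Dpt, Cd34, Clec3b, Thbs4 and Pi16 were at 0. Over all genes 1.27% were called higher and 1.19% lower. The erythroid list summed to 175 CPM in members, 323 in the middle, 1316 in the lowest 25% and 4863 in osteolineage cells. Of 5 measured erythroid genes, 4 haemoglobin genes were called lower in members. Hbb-bs stood at 73.2 CPM in members, 148 in the middle, 534 in the lowest 25% and 2043 in osteolineage cells, with 1405 in empty droplets. With the cell of most UMIs left out of each class, its ratio over the middle was -0.47, that of Hba-a1 -0.29 and that of Hba-a2 -0.13, all short of 1.5-fold. In the lowest 25%, 93.5% of its UMIs lay in 40 cells, 1 of which held 1733. The endothelial list summed to 39.8 CPM in members and 47.5 in the middle, with Tek at 0, and the granulocyte list to 69.2 and 56.6 with Cebpe at 0. The lymphoid and megakaryocyte list summed to 35.8 and 34.6 CPM, with Ptprc, Cd3d, Cd3e, Cd79a, Cd79b and Nkg7 among the genes at 0. The osteoclast and macrophage list, which includes Vcam1, summed to 1974 CPM in members, 2152 in the middle and 2449 in the lowest 25%. With cells of 0.2% or more bone gene UMIs left out, Vcam1 stood at 1757 CPM in members and 1941 in the middle. The osteoclast protease gene Ctsk then stood at 198 and 193 CPM. Among other osteoclast genes, Acp5 stood at 2.94 CPM, Mmp9 at 1.34 and Csf1r at 1.60 in all members, and Calcr, Dcstamp and Ocstamp were at 0. The part of such RNA in the differences was not tested.

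Against the lowest 25% of the ranking, the difference took in more genes. Of 1682 genes that reached 100 CPM, 25 (1.49%) were called higher and 25 (1.49%) lower. Beside the set above, members held more Angptl1, an angiopoietin-like secreted protein (119 against 44.5 CPM, 1.43), Aldh1a2, which makes retinoic acid (122 against 56.7, 1.11), S100b (283 against 133, 1.09) and Wisp2, a CCN family protein (844 against 413, 1.03). Against the middle these 4 had ratios of 0.23, 0.55, 0.40 and 0.18, none called. The lowest 25% held more Id1, a target of BMP signals (299 against 136 CPM, -1.13), Itih5 (-0.93), Lox, which crosslinks collagen (-0.81), Efemp1 (-0.80) and Rgcc (-0.75). Lox had -0.47 over the middle, and Slc5a3 and Hspb1 -0.47 and -0.45, none called. For the 4 genes and Lox the middle 50% lay between members and the lowest 25%, and for Angptl1, S100b and Wisp2 it lay nearer to members. Within members the order did not always hold. Wisp2 stood at 777 CPM in bin 1 and 931 in bin 2, and Id1 at 149 and 102. Alpl, at 50.3 and 55.9 CPM, did not fall from middle to lowest.

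Members were far from the osteolineage cells that the bone gene limit set aside. Those 149 cells included 53 that met the Cxcl12 share. The rule chose members for Cxcl12 and for few bone gene UMIs, and the osteolineage cells for many. Differences in stromal and bone genes between the classes are thus partly set by that choice and are a description. Of 7832 measured genes, 1104 (14.1%) were called higher and 496 (6.33%) lower in members. Scaling by the median ratio, a shift of 0.143 log2, gave 801 higher and 756 lower, so the balance of directions depends on the scaling. None of 18 bone matrix genes was called higher and 13 were called lower (median -1.47 beside 0.143 over all genes). Ifitm5, an osteoblast membrane protein, stood at 2.41 CPM in members and 152 in osteolineage cells, and Cpe, a carboxypeptidase, at 5.61 and 381. The middle 50% held 2.4 CPM of Ifitm5 and 2.67 of Cpe, on 18 and 20 UMIs.

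Between these classes, which the rule chose by Cxcl12 and bone genes, stromal genes stood higher in members. Of 23 niche factors 14 were called higher in members than in osteolineage cells and 1 lower, Tgfb1, with a median of 1.20. Over all genes 14.1% were called higher and 6.33% lower. Kitl stood at 771 against 301 CPM, Il34, a macrophage growth factor, at 629 against 77.9, and Bmp4 at 229 against 42.6. Of 17 adipogenic and lipid genes 8 were higher and none lower (median 0.83), including Pparg at 40.1 against 12.2 CPM. The kininogen genes Kng1 and Kng2, which had -0.33 each over the middle, had 2.74 and 2.65 over osteolineage cells. Spp1, a gene of the rule, stood at 51839 CPM in osteolineage cells, above members at 8968, whereas Ibsp stood at 6330, below them. Ibsp also stood above osteolineage cells in the middle 50% (7616 CPM) and below them in the lowest 25% (3847).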

How the data were processed

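Counts were analysed as deposited: the authors' matrix holds UMI counts per gene for every barcode of both libraries, and the cell table gives each cell's library. Per the submitters' processing notes the tools were Cell Ranger 2.1.1 and Seurat 2.3.4 and the build mm10, with their roles not given in the sources used here. Members and gene lists (32) were chosen with earlier results of these data known. UMIs were summed per class and given as CPM. With 1 library there is no replicate and no test. Sums carry exact Poisson and ratios conditional exact binomial 95% intervals, which cover counting error only. A gene counted as measured at 50 UMIs or more in both classes together, and as called at 1.5-fold or more with an interval excluding no difference. Named genes were the 14 rule genes, the 20 highest and 20 lowest ratios over the middle 50% among genes that reached 100 CPM (no mitochondrial, ribosomal, haemoglobin or predicted genes), the 8 and 8 of each other comparison, all members of 6 lists, up to 4 of each other list, cell type markers and label checks. The calling step was tried on simulated Poisson sums only, with changes set in well-counted genes. Such sums hold no clustering of UMIs in few cells, so false calls of that kind were not tested. Bin 1 genes in the closing section were chosen after their values were seen. Empty droplets were barcodes with 1 to 50 UMIs. Both libraries shared 42 cell barcodes. Scrublet marked 1 of 4250 cells, too few to rely on, so doublets were not removed. Gene positions come from GENCODE M21 on GRCm38 and sequences from RefSeq. Splits at 0.2% of bone gene UMIs, rankings by Ibsp or Spp1 alone, and leaving out the cells with most UMIs of a gene were added after the data had been seen. The division of cells at the medians of both shares was also chosen after values had been seen. Python 3.11.15, numpy 2.4.6, scipy, pandas and scanpy were used.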

Additional observations from a re-analysis of the deposited data

How the results depend on the processing

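With 1 library, nothing below measures variation between animals. No paired analysis was possible because each group is 1 library. Of the main counts (127 higher and 119 lower against the middle 50%, 164 and 184 against the lowest 25%), the highest 10% as members gave 226 and 214 against the middle, and cells thinned to 1000 UMIs gave 82 and 75, and 72 and 107 against the lowest 25%. The lower fold limit that was tried gave 280 and 293, and 338 and 445, and a fold of 2 gave 31 and 27, and 38 and 51. A minimum of 200 UMIs gave 34 and 16, and 53 and 63. Cells of lowest depth, of 3 equal classes of depth, gave 79 higher against the lowest 25%. Against osteolineage cells (1104 and 496), a fold of 2 gave 657 and 271, 200 UMIs 592 and 226, and scaling by the median ratio 756 lower. The 4 bone matrix genes called higher became 2 with cells ranked by Ibsp+Spp1 alone or with split counts, 1 in the cells of lowest and of middle depth, at 200 UMIs and ranked by Spp1 alone, and 0 when thinned or ranked by Ibsp alone. The 1 adipogenic gene called lower became 3 in the highest 10% and at the lower fold limit, 2 at middle depth, and 0 ranked by Ibsp+Spp1 or Ibsp alone, when thinned, at highest depth, at a fold of 2 or with bone genes under 0.2%. Log2 ratios over the middle 50% that changed sign were as follows. Ranked by Ibsp+Spp1 alone they were Atf3 -0.34, Limch1 -0.34, Rmnd1 -0.02, Mmp13 -0.08, Ccl2 -0.09, Sox9 -0.42, Vdr -0.11, Adipoq 0.13 and Mrap 0.06. Ranked by Ibsp alone they were Kcnk2 -0.59, Atf3 -0.60, Car3 -2.03, Postn -0.34, Bglap2 -0.44, Bglap -1.17, S100a6 -0.37, Klf4 -0.15, Il6 -1.09, Limch1 -0.36, Spp1 -0.13, Saa3 -0.84, Wif1 -0.18, Slc20a2 -0.25, Mmp13 -0.21, Ccl2 -0.36, Sox9 -0.35, Adipoq 0.21 and Mrap 0.12. Ranked by Spp1 alone they were Alpl -0.01, Il6 -0.06, Limch1 -0.09, Timp4 0.14, Saa3 -0.48, Rmnd1 -0.04, Slc20a2 -0.01, Lpl 0.12, Sox9 -0.24 and Vdr -0.04. Ranked by Adipoq+Lpl alone Fabp4 had 1.47. Thinned cells gave Atf3 -0.85, Slc20a2 -0.68 and Sox9 -0.43, and split counts Atf3 -0.17. Cells of middle depth gave Hba-a1 0.38 and Hba-a2 0.30, those of highest depth Il6 -0.01, and leaving out the 5% of cells with the most UMIs per gene Hba-a1 0.03 and Hba-a2 0.61. Fewer genes or cells are part of the construction of the thinned, depth and minimum settings, and for the others the cause was not tested. Split counts kept 658 of 799 members (82.4%), and gave Alpl 0.95, Wif1 0.97 and Kcnk2 1.16. Ratios that held on fewer than 100 UMIs in members are uncertain at this depth.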

Other observations

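The 320 cells of bin 1 differed from the 320 of bin 2 in further genes, some of them on the lists of fibroblast, complement and RANKL genes. Among genes that reached 100 CPM, bin 1 held more Ccdc80, a secreted matrix protein (125 against 50.8 CPM, log2 ratio 1.29), Gsn, an actin-severing protein (389 against 187, 1.06), Rgs2, a regulator of G protein signals (366 against 178, 1.04), and Foxc2, a forkhead factor (105 against 53.6, 0.97). Tnfsf11, which encodes RANKL, stood at 132 CPM in bin 1 and 74.2 in bin 2 (0.83, 0.48 to 1.18) and was called there, although it was not called for members as a whole. In the 50 cells of bin 1 with 0.2% or more bone gene UMIs it stood at 267 CPM, and over the other 270 its ratio to bin 2 was 0.49 (0.11 to 0.87) and not called. Lifr, a receptor subunit for the cytokine LIF, stood at 327 and 194 CPM (0.75), and at a ratio of 0.47, not called, over those 270 cells. Ccdc80 (0.82), Gsn (0.89), Rgs2 (0.62) and Foxc2 (0.61) were still called over them. Bin 1 held less Cfb, complement factor B (78.4 against 138 CPM, -0.82), and less Htatip2 (75.1 against 131, -0.80). These bins lie in 1 library, with no replicate.

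Other lists gave few calls between members and the middle 50%, where 1.27% of all genes were called higher and 1.19% lower, so that counts of 0 in short lists are near the background. No call fell on 16 measured genes of the interferon response, 16 of complement and antigen presentation, 18 of oxidative phosphorylation and glycolysis, 13 glucocorticoid targets, 10 integrins, 9 Notch genes, 6 Hedgehog genes or 7 proliferation genes. Of 32 genes of BMP and TGF-beta signalling, Gdf10 alone was called higher, and of 39 interstitial matrix genes Col6a3 alone.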
